A study of Mus musculus with 2 samples.

Results

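The CXC chemokines and their receptors were described in myeloid cells of mouse malignant pleural effusions through 10 genes: the ligands Cxcl1, Cxcl2, Cxcl3, Cxcl9, Cxcl10 and Cxcl16 and the receptors Cxcr2, Cxcr3, Cxcr4 and Cxcr6. They were taken by gene symbol, and all 10 were found among the 27998 genes that both count matrices list. Droplet single-cell RNA sequencing had been run on 2 libraries of 1 group. In that group, mice carried LLC cells (Lewis lung carcinoma, a mouse tumour line), placed in the pleural space 10 days earlier as 150000 cells in 100 µl, and the fluid was sorted for live leukocytes (CD45+) of mostly myeloid kind (CD11b+). The sources used here do not give the strain, genotype or age of the mice, or how many mice went into each library. No tumour-free sample was part of the group, so the comparisons lie between cell types within the effusion.

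CXC chemokines are small secreted proteins that guide leukocytes along gradients through G protein-coupled receptors. Cxcl1, Cxcl2 and Cxcl3 signal through Cxcr2 and draw neutrophils, Cxcl9 and Cxcl10 are interferon-induced and draw T cells and NK cells through Cxcr3, and Cxcl16 is made as a membrane-bound protein that Adam10 can shed and that binds Cxcr6. Cxcr4, the receptor of Cxcl12, is known for holding neutrophils and B cell precursors in the bone marrow.

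Cells were assigned to classes by marker genes, none of which is a CXC gene, with thresholds on marker UMIs per 10000 (a UMI is a counted RNA molecule). Libraries 1 and 2 gave 92 and 1590 neutrophil-like cells (S100a8, S100a9, Csf3r), 27 and 21 resident-macrophage-like cells (Alox15, Prg4, Gata6), 323 and 78 macrophage-like cells (C1qa, Cd163, Folr2), 95 and 210 monocyte-like cells (Ly6c2, Ccr2, Plac8) and 126 and 32 dendritic-like cells (Cd209a, H2-DMb2, Flt3). A further 347 and 736 cells passed both the macrophage and the monocyte threshold and were kept apart as intermediate. The macrophage-like, intermediate and monocyte-like classes are ranges along a gradient: 581 of 995 and 592 of 1203 cells lay within a factor of 2 of the monocyte threshold, and 218 and 386 of the macrophage threshold. Macrophage-like cells still held a median of 38.3 and 44 monocyte marker UMIs per 10000, and monocyte-like cells 18 and 15.3 macrophage marker UMIs. Despite the myeloid label, small classes of mature-dendritic-like cells (Ccr7, Fscn1; 10 and 5 cells), T- or NK-like cells (Cd3d, Nkg7; 3 and 42) and B-like cells (Cd79a, Ms4a1; 26 and 12) were present. They were too few in at least 1 library for a test and are described only.

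The libraries stood apart in several ways. Neutrophil-like cells made up 8.24% of the kept cells of library 1 and 55.8% of those of library 2, and the smallest deposited barcode held 1999 and 500 UMIs. Y-linked RNA without Xist was found in 767 cells of library 1 and 109 of library 2, and Xist without Y-linked RNA in 0 and 1298, so differences between the libraries and between the sexes largely cannot be told apart. Library 2 also holds reads of 2 antibody tags, named BC2 and BC3, whose meaning the labels do not give. Cells with more BC2 than BC3 were put on the BC2 side, and all others, also those with equal counts, on the BC3 side. Cells with equal counts were not counted apart. Of the 1590 neutrophil-like cells of library 2, 1542 lay on the BC3 side, and of its 78 macrophage-like cells 77 had more BC2. Erythroid genes summed to 63.1 and 4.49 CPM (the UMIs of a gene per 1000000 gene UMIs) in libraries 1 and 2. Markers of tumour or epithelial cells summed to 0.436 and 0.247 CPM, with Krt19 at 0 in both. The libraries shared 4 cell barcodes.

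The promoters of the 3 Cxcr2 ligands are shown because these genes are set side by side below. The RefSeq promoter table of GRCm38.p6 covers 9 of the 10 genes (not Cxcl16). The longest run of bases that all 3 promoters share before the annotated start was GGGAATTTCCC, 11 bases that hold a form of the NF-kB motif (a run of 13 shared bases lies after the start). It stood at position -71 in Cxcl1, -97 in Cxcl2 and -73 in Cxcl3, and on either strand in 14 of all 32851 promoters (0.0426%), each taken as 300 bases around the start. The 130 bases before each start, written 5′ to 3′ with the shared run in capitals, lie on the plus strand of chromosome 5, at chr5:90891115-90891244 for Cxcl1, chr5:90903769-90903898 for Cxcl2 and chr5:90785971-90786100 for Cxcl3. They end at the RefSeq start, and the last bases for Cxcl1 and Cxcl2 lie within the GENCODE genes given below.
Cxcl1: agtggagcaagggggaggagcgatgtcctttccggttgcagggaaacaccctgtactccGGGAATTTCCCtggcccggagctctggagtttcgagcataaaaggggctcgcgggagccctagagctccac
Cxcl2: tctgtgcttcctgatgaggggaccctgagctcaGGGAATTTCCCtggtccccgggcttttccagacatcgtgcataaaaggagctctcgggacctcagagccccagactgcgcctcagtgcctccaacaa
Cxcl3: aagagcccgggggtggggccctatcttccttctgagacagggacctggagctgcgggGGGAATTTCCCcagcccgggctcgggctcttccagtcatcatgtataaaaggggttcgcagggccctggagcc

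The Cxcl10 promoter held the repeat of interferon response elements, GAAA and again GAAA after 2 further bases, at position -213, as did 1131 of the 32851 promoters (3.44%, either strand). The Cxcl9 promoter did not hold these letters in this window. For NF-kB only the exact run of 11 bases was searched. Other forms of that motif were not looked for, and any in the Cxcl10 promoter stay in small letters below. The 250 bases before the Cxcl10 start (chr5:92348890-92349139, minus strand) are shown with the GAAA match in capitals.
Cxcl10: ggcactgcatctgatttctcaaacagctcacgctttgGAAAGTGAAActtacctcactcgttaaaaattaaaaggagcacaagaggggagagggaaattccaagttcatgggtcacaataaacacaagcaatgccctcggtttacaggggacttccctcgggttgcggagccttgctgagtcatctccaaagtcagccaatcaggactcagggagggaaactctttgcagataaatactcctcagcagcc

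In the GENCODE annotation of mm10, all 10 genes are protein-coding. Cxcl3 (chr5:90786103-90789600), Cxcl1 (chr5:90891241-90893115) and Cxcl2 (chr5:90903871-90905938) lie near each other on the plus strand, and Cxcl9 (chr5:92321347-92328079) and Cxcl10 (chr5:92346638-92348889) on the minus strand of the same chromosome. Cxcl16 lies at chr11:70453983-70459984 (minus), Cxcr2 at chr1:74153989-74161246 (plus), Cxcr4 at chr1:128588199-128592293 (minus), Cxcr3 at chrX:101731535-101734269 (minus) and Cxcr6 at chr9:123806475-123811760 (plus). Of 799 windows of 50 bases at the 3′ ends of Cxcl2 transcripts, 61 (7.63%) also occur in Cxcl3 transcripts, so a small share of Cxcl2 reads could not be told from Cxcl3. Cxcr6 lies across Fyco1, Cxcl16 across Zmynd15 and Cxcl10 across Art3, each on the opposite strand, with 329, 41 and 7 UMIs over all barcodes. The sources used here do not say whether the counting used strand.

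Cxcl2, a neutrophil attractant made by activated myeloid cells, had its highest level in neutrophil-like cells, at 6058 and 6064 CPM in libraries 1 and 2. It stood at 322 and 1158 CPM in resident-macrophage-like cells, and macrophage-like cells held 824 and 749, intermediate cells 1343 and 1193, monocyte-like cells 1556 and 1195 and dendritic-like cells 62.6 and 193. Both neutrophil-like values lay above every value of the other classes, and the values of resident-macrophage-like and macrophage-like cells overlapped. Against macrophage-like cells, neutrophil-like cells held more Cxcl2 RNA (log2 fold change 3.41 ± 0.45 SE, edgeR quasi-likelihood adjusted p = 3.14e-05, n = 2 libraries). The ratio within each library was 2.88 and 3.02 on the log2 scale, and the call was kept in 9 of 9 alternatives with a test. Macrophage-like cells in turn held more than dendritic-like cells (2.73 ± 0.46, edgeR adjusted p = 0.000809). That difference was 3.71 in library 1 and 1.95 in library 2. Between macrophage-like and monocyte-like cells the difference was -0.84 ± 0.41 (edgeR adjusted p = 0.351), and between resident-macrophage-like and macrophage-like cells -0.19 ± 0.42 (edgeR adjusted p = 0.86). In the small classes, Cxcl2 stood at 21.1 and 60.2 CPM in mature-dendritic-like cells, 0 and 333 in T- or NK-like cells and 22.8 and 117 in B-like cells.

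Per cell, Cxcl2 was spread over most neutrophil-like cells and varied widely among them. Their median was 33.5 and 39.1 UMIs per 10000, with 10% of cells above 140 and 165 and the highest cells at 1642 and 947. Macrophage-like cells had medians of 3.73 and 3.96, and dendritic-like cells 0 and 0.246. At least 1 Cxcl2 UMI was seen in 94.6% (87 of 92) and 80.3% (1276 of 1590) of neutrophil-like cells, against 80.2% and 74.4% of macrophage-like cells, at median depths of 2265 and 1313 UMIs against 11481 and 12640. With each cell thinned to 1000 UMIs, which left out 373 shallower neutrophil-like cells of library 2 and 3 macrophage-like ones, the shares were 88% and 78.2%, against 40.2% and 49.3%. B-like cells, which are not known as a source, held a Cxcl2 UMI in 11.5% (3 of 26) and 25% (3 of 12) of cells at median depths of 5488 and 5265, and in 3.85% and 0% after thinning.

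**Figure D1:**
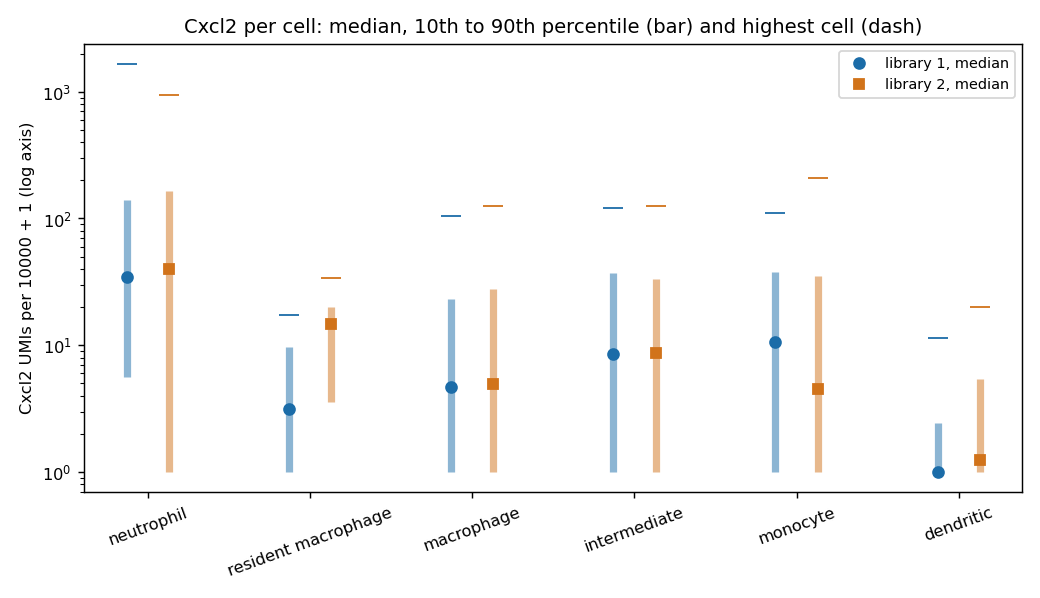
Cxcl2 UMIs per 10000 UMIs in single cells of 6 classes (plus 1, log axis), with the median as a point, the 10th to 90th percentile as a bar and the highest cell as a dash, for libraries 1 and 2. Neutrophil-like cells had medians of 33.5 and 39.1, against 3.73 and 3.96 in macrophage-like cells.

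In library 2 the neutrophil-like cells of the 2 antibody tag sides had different levels of these genes, given without a test because they come from a single library. The 1542 cells on the BC3 side held Cxcl2 at 6626 CPM and Cxcr2 at 1961, and the 48 on the BC2 side 2232 and 338. Cxcr4 stood at 65.3 CPM (150 UMIs) on the BC3 side and 5.94 (2 UMIs) on the BC2 side, while Cxcl16 was at 4.35 and 38.6 CPM. The cells also differed in depth and markers. On the BC3 side the medians were 1301 UMIs in all, 1251 neutrophil marker UMIs per 10000 and 50.6 monocyte marker UMIs per 10000, and on the BC2 side 6890, 332 and 102. The part of these values in the difference was not tested. When only BC2-side cells of library 2 were used, 5 of the 6 calls between neutrophil-like and macrophage-like cells remained, the same genes other than Cxcl9. For Cxcr4, library 2 then gave only 2 UMIs in neutrophil-like and 3 in macrophage-like cells. In that fit 833 of 8324 genes (10%) were called, against 50.6% of 8759 genes with both sides.

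Cxcl3, a close relative of Cxcl2, was found in neutrophil-like, macrophage-like, intermediate and monocyte-like cells with higher values in library 1 in each. Its level in libraries 1 and 2 was 693 and 286 CPM in neutrophil-like cells, 570 and 45.7 in macrophage-like, 767 and 134 in intermediate and 618 and 110 in monocyte-like cells. Resident-macrophage-like cells held 14.6 and 10.7 CPM (4 and 5 UMIs) and dendritic-like cells 6.52 and 2.68 (10 UMIs and 1 UMI). The ranges of neutrophil-like, macrophage-like, intermediate and monocyte-like cells overlapped each other, and all of them lay above those of resident-macrophage-like and dendritic-like cells. Cxcl3 was called higher in neutrophil-like than in macrophage-like cells (1.86 ± 0.41, edgeR adjusted p = 0.00198), but the ratio was 0.29 in library 1 and 2.63 in library 2, and without the library block the call was lost (1.06, adjusted p = 0.488, the highest of 9 alternatives, whose lowest was 8.05e-12).

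Resident-macrophage-like cells held less Cxcl3 than macrophage-like cells (-4.08 ± 0.69, edgeR adjusted p = 0.00109, with -5.11 and -1.97 within libraries 1 and 2). Macrophage-like cells held more than dendritic-like cells (5.74 ± 0.70, edgeR adjusted p = 4.68e-05, with 6.38 and 3.52 within the libraries). Without the library block these calls were lost too, with fold changes of -4.70 and 5.67 (edgeR adjusted p = 0.129 and 0.0584). One barcode of library 1 alone held 235 Cxcl3 UMIs.

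Cxcl1, the third Cxcr2 ligand, was rare in all 9 classes. Resident-macrophage-like cells had 0 Cxcl1 UMIs in library 1, which allows up to 11 CPM, and 29 UMIs (62.1 CPM, 95% counting interval 41.6 to 89.2) in library 2. Macrophage-like cells had 7.57 and 3.39 CPM (29 and 4 UMIs), intermediate cells 2 and 3.93, monocyte-like cells 9.56 and 1.45 and neutrophil-like cells 3.09 and 0.38 (1 UMI each). The library 2 value of resident-macrophage-like cells stood above all others, and that of library 1 was at 0, with a limit above every other value of that library. The library 2 value came from 7 of 21 cells (33.3%), against 0 of 27 in library 1, and from 1 of 21 (4.76%) after thinning. Its 9 cells on the BC3 side held 21 of the UMIs (118 CPM, interval 72.8 to 180). The 12 cells on the BC2 side held 8 (27.7 CPM, interval 12 to 54.7). The difference from macrophage-like cells did not pass (2.41 ± 0.91, edgeR adjusted p = 0.129), and passed in 4 of 8 alternatives (adjusted p = 0.000407 to 0.356). Dendritic-like cells held 0 UMIs in both libraries, and macrophage-like cells at least 4.18-fold more, taking 3 counts over the group as the floor; this difference did not pass either (edgeR adjusted p = 0.15).

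**Figure D2:**
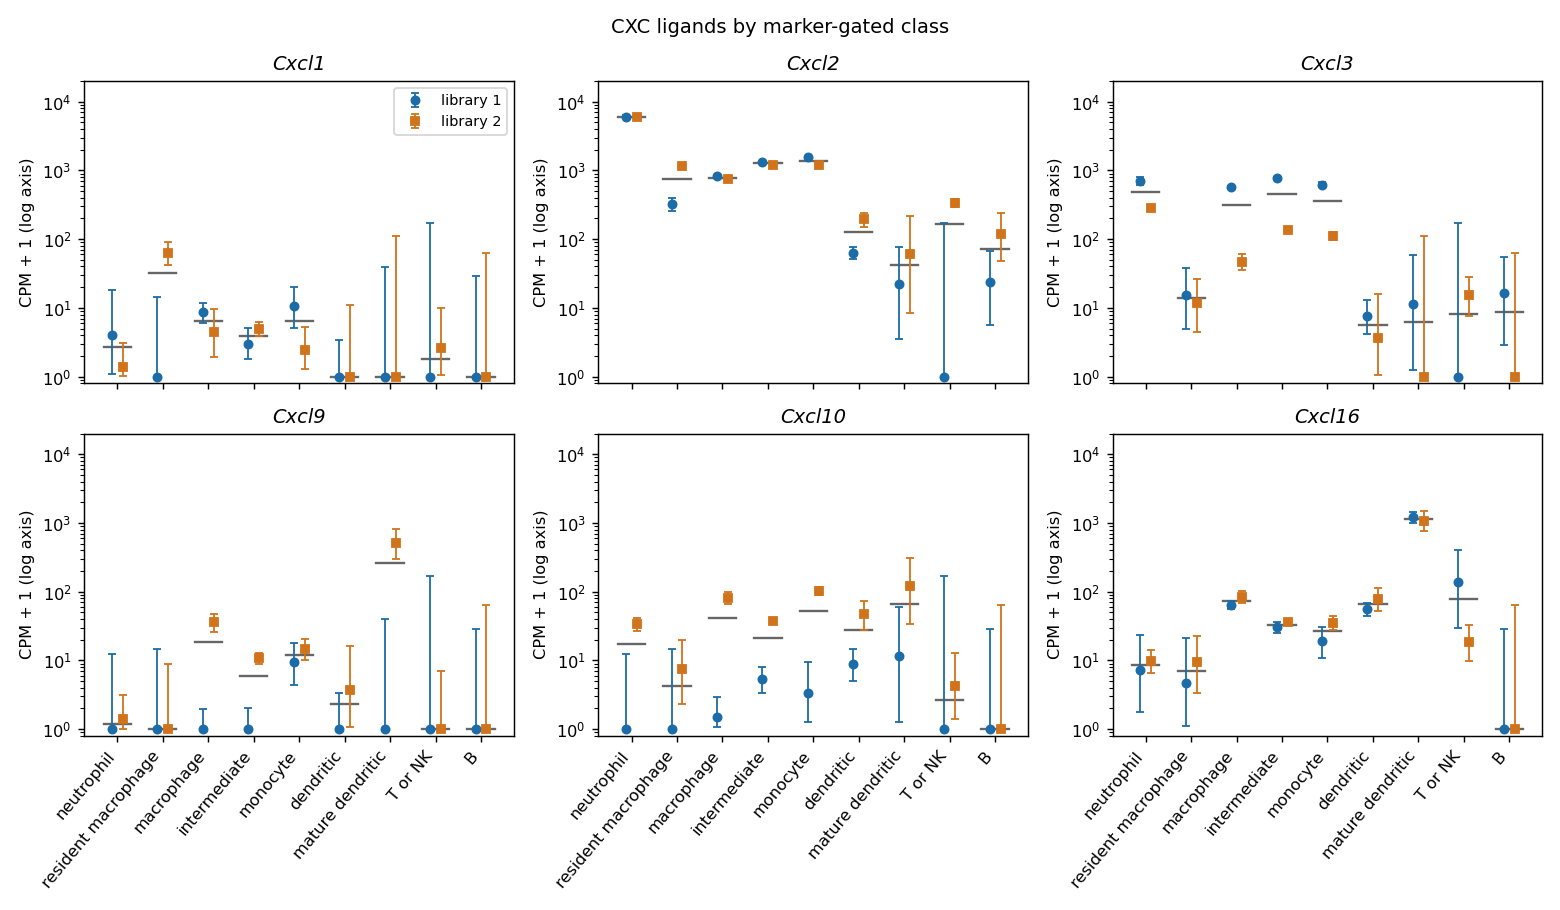
Levels of the 6 CXC ligands as CPM + 1 on a log axis in 9 marker-gated classes, with points for libraries 1 and 2, bars for exact Poisson 95% intervals and a grey line for the mean. Cxcl2 stood at 6058 and 6064 CPM in neutrophil-like cells, and Cxcl16 at 1200 and 1083 CPM in mature-dendritic-like cells.

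The interferon-induced ligands Cxcl9 and Cxcl10 were found almost entirely in library 2. Cxcl9 gave 7 UMIs in library 1, all in 1 monocyte-like cell, and 205 in 49 cells of library 2. There it stood at 0.38 CPM in neutrophil-like cells, 0 in resident-macrophage-like, 34.7 in macrophage-like, 9.73 in intermediate, 13.5 in monocyte-like and 2.68 in dendritic-like cells. Of the 5 mature-dendritic-like cells of library 2, 2 held 17 UMIs, or 512 CPM (interval 298 to 819). Few cells carried the gene: 8 of the 49 held as many UMIs as the other 41 together or more. Cxcl9 was called lower in neutrophil-like than in macrophage-like cells (edgeR adjusted p = 0.0109), from 1 against 41 UMIs, a ratio of 0.0413 (95% counting interval 0.00102 to 0.244). All of these UMIs came from library 2, the values of the 2 classes overlapped at 0 in library 1, and the call held in 5 of 9 alternatives (adjusted p = 2.46e-07 to 0.595), with DESeq2 among those that lost it.

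Cxcl10 gave 34 UMIs in library 1 and 847 in library 2. In library 1 the classes of the test held between 0 and 7.82 CPM, the last in dendritic-like cells. In library 2 the level was 32.3 CPM in neutrophil-like cells, 6.42 in resident-macrophage-like, 79.5 in macrophage-like, 36.4 in intermediate, 102 in monocyte-like and 45.6 in dendritic-like cells, and 120 (4 UMIs) in mature-dendritic-like cells. Of the 177 library 2 cells with a Cxcl10 UMI, 12 held as many UMIs as all others together or more, and a single cell held 86. A UMI was seen in 12.4% of monocyte-like and 2.2% of neutrophil-like cells there at median depths of 9827 and 1313 UMIs (4.55% and 1.73% after thinning), and in 0 of 12 B-like cells at 5265. Cxcl10 was called in none of the 4 comparisons, with log2 fold changes between -3.29 (resident-macrophage-like against macrophage-like, edgeR adjusted p = 0.0713) and -0.19. That difference passed in 4 of 8 alternatives. Cxcl9 and Cxcl10 were seen together in 9 of 736 intermediate cells of library 2, where 31 held Cxcl9 and 92 Cxcl10.

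Cxcl16, the membrane-bound ligand of Cxcr6, followed another order. Mature-dendritic-like cells had 1200 CPM (interval 990 to 1442; 114 UMIs) in library 1 and 1083 (759 to 1500; 36 UMIs) in library 2, and 10 of 10 and 5 of 5 cells held a UMI. Zmynd15, which lies across Cxcl16 on the opposite strand, had 42.1 and 181 CPM (4 and 6 UMIs) in mature-dendritic-like cells. It had at most 3.39 CPM in any other class, and its part in the Cxcl16 values was not tested. In libraries 1 and 2 neutrophil-like cells held 6.18 and 8.73 CPM of Cxcl16. The level was 3.65 and 8.57 CPM in resident-macrophage-like, 63.4 and 82.9 in macrophage-like, 29.4 and 35.1 in intermediate, 17.9 and 33.8 in monocyte-like and 54.1 and 77.8 in dendritic-like cells. B-like cells held 0 UMIs in both libraries, which allows up to 22.8 and 50.3 CPM. The mature-dendritic-like values lay above all others, and the macrophage-like and dendritic-like values overlapped. After thinning, 60% and 25% of mature-dendritic-like cells (6 of 10 and 1 of 4) held a Cxcl16 UMI, against 7.94% and 9.38% of dendritic-like and 0.575% of library 2 neutrophil-like cells.

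Among the tested classes, Cxcl16 was lower in neutrophil-like than in macrophage-like cells (-2.68 ± 0.29, edgeR adjusted p = 5.38e-06, -3.04 and -3.22 within the libraries). It was also lower in resident-macrophage-like than in macrophage-like cells (-3.50 ± 0.41, edgeR adjusted p = 4.37e-05, -3.54 and -3.11). That call was lost when cells were grouped by clusters with intermediate clusters counted as macrophage-like (-1.44, edgeR adjusted p = 0.104), and held in the other 7 alternatives. Macrophage-like cells held more than monocyte-like cells (1.43 ± 0.22, edgeR adjusted p = 0.00231, 1.78 and 1.29), and the intermediate cells lay between them in both libraries, close to monocyte-like cells in library 2. The macrophage call was lost without the library block (1.43, edgeR adjusted p = 0.167) and with intermediate cells counted as macrophage-like (0.67, edgeR adjusted p = 0.622). Against dendritic-like cells the difference was 0.04 ± 0.21 (edgeR adjusted p = 0.934).

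Among the receptors, Cxcr2, through which neutrophils sense the Cxcl1, Cxcl2 and Cxcl3 gradient, was high in neutrophil-like cells, at 891 and 1754 CPM. The other tested classes lay between 3.58 and 40.3 CPM: 11 and 4.28 in resident-macrophage-like, 11.2 and 13.5 in macrophage-like, 8 and 10.8 in intermediate, 3.58 and 16.9 in monocyte-like and 10.4 and 40.3 in dendritic-like cells. B-like cells held 0 UMIs. The neutrophil-like values did not overlap with any other class, while most other neighbours in the order did. The difference from macrophage-like cells was 7.07 ± 0.36 (edgeR adjusted p = 3.63e-09, 6.30 and 6.97 within the libraries) and was called in 9 of 9 alternatives. A UMI was found in 82.6% and 86% of neutrophil-like cells and 8.67% and 8.97% of macrophage-like cells. After thinning these were 62% and 81.7%, against 1.55% and 1.33%.

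Cxcr4 stood at 58.8 and 57.7 CPM in neutrophil-like cells (19 and 152 UMIs), against 9.4 and 2.54 CPM in macrophage-like cells (36 and 3 UMIs). Intermediate cells held 3.14 and 3.48 CPM, monocyte-like cells 1.19 and 3.86 and dendritic-like cells 6.52 and 8.05, so that the neutrophil-like values lay above all tested classes. The difference from macrophage-like cells was 3.53 ± 0.39 (edgeR adjusted p = 9.6e-06, 2.66 and 4.29 within libraries 1 and 2). It was called in 9 of 9 alternatives, in the weakest of them only just (edgeR or DESeq2 adjusted p at most 0.0486). B-like cells held 98.7 and 67.1 CPM (13 and 4 UMIs, intervals 52.6 to 169 and 18.3 to 172), above both neutrophil-like values but with intervals that contain them. Resident-macrophage-like cells held 0 UMIs, which allows up to 11 and 6.42 CPM, and macrophage-like cells at least 1.92-fold more over both libraries (edgeR adjusted p = 0.109, not called). After thinning, 6.52% and 6.08% of neutrophil-like and 1.55% and 0% of macrophage-like cells held a Cxcr4 UMI. Cxcr2 and Cxcr4 were seen in the same cell in 11 of the 14 and 112 of the 130 neutrophil-like cells with Cxcr4. Among all neutrophil-like cells, Cxcr2 was seen in 76 of 92 (82.6%) and 1367 of 1590 (86%), so these counts show no particular pairing of the 2 receptors.

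Cxcr3 and Cxcr6, receptors of T cells and NK cells, had too few UMIs in the tested classes for the test. Cxcr3 stood at 128 CPM (79 UMIs, interval 101 to 159) in the 42 T- or NK-like cells of library 2 and at 1 UMI in the 3 cells of library 1. Dendritic-like cells held 1.96 and 16.1 CPM (3 and 6 UMIs) and all other classes at most 6.18. The 6 UMIs of library 2 all lay in 1 of its 32 dendritic-like cells. Cxcr6 had 392 CPM (243 UMIs, interval 345 to 445) in T- or NK-like cells of library 2. It had 0 UMIs over all 1116 kept cells of library 1, 26 UMIs in intermediate and 5 in monocyte-like cells of library 2, and 0 in its neutrophil-like, macrophage-like and dendritic-like cells.

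Of the 42 T- or NK-like cells, 30 (71.4%, interval 55.4% to 84.3%) held a Cxcr6 UMI, 29 of them with Cd3 RNA, and 27 (64.3%, interval 48% to 78.4%) a Cxcr3 UMI, 22 with Cd3. Both receptors were seen in 22 cells. At a median depth of 9680 UMIs, these shares stand against 1.09% (8 of 736) of intermediate cells for Cxcr6 and 0.815% (6 of 736) for Cxcr3, at 11726 UMIs. After thinning they were 33.3% and 21.4%, against 0% and 0%. A further 26 cells of library 2 with T or NK markers and C1q RNA had been left out of the classes as possible pairs of cells: at a median of 30082 UMIs they held 173 Cxcr6 UMIs (224 CPM) and 25 of Cxcr3 (32.4 CPM).

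**Figure D3:**
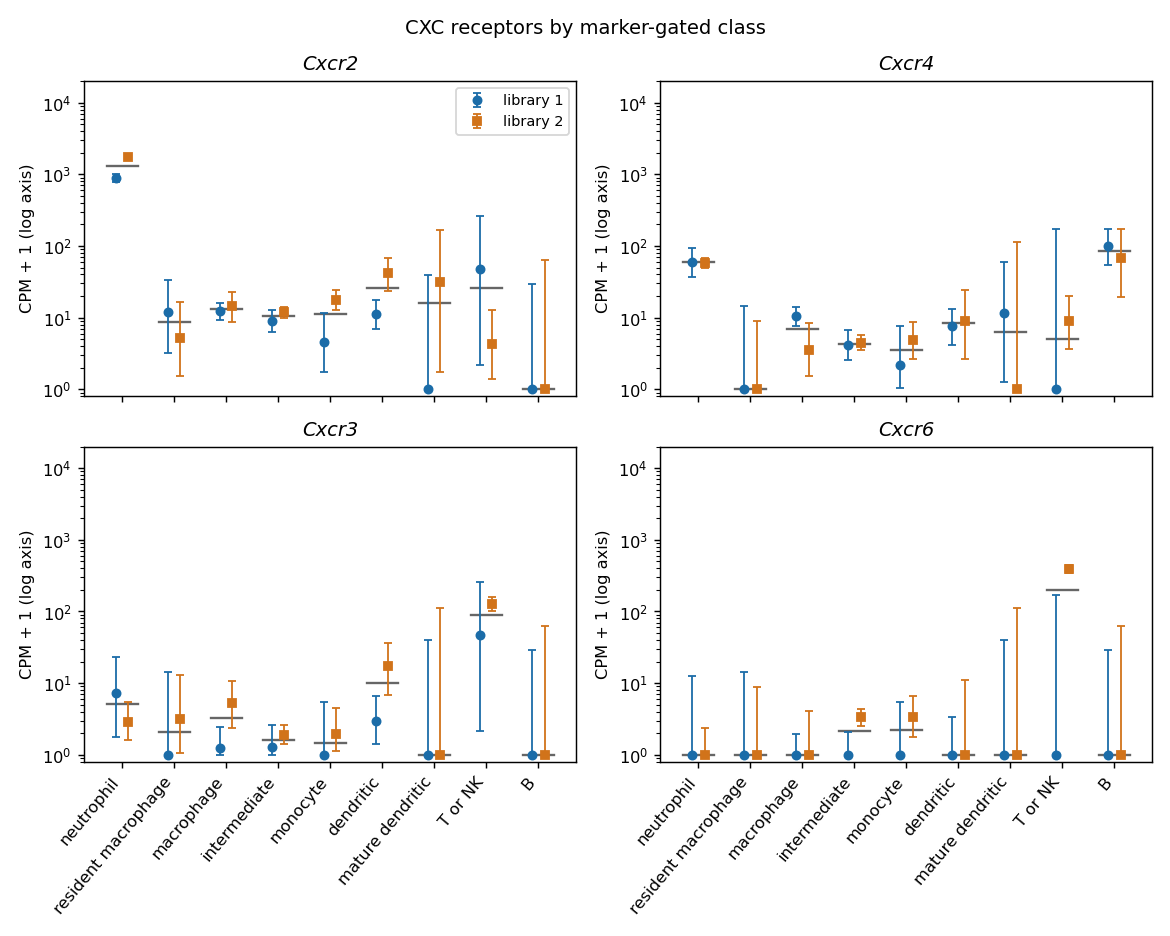
Levels of the 4 CXC receptors as CPM + 1 on a log axis in 9 marker-gated classes, with points for libraries 1 and 2, bars for exact Poisson 95% intervals and a grey line for the mean. Cxcr2 stood at 891 and 1754 CPM in neutrophil-like cells, and Cxcr6 at 392 CPM in T- or NK-like cells of library 2.

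Set side by side as senders and receivers, the ligand Cxcl2 and its receptor Cxcr2 had their highest levels in the same class. Both were found in 74 of 92 (80.4%) and 1106 of 1590 (69.6%) neutrophil-like cells. Counted singly, Cxcl2 was found in 94.6% and 80.3% of these cells and Cxcr2 in 82.6% and 86%. Whether the pair occurs together more often than the single shares give was not tested. Of macrophage-like cells, which were sequenced more deeply, 24 of 323 (7.43%) and 6 of 78 (7.69%) held both. Cxcl3, also a Cxcr2 ligand, had its highest mean in neutrophil-like cells too (489 ± 287 CPM, SD, n = 2), with a range that overlapped those of intermediate, monocyte-like and macrophage-like cells. Cxcl16 had its highest level in mature-dendritic-like cells and Cxcr6 in T- or NK-like cells. In T- or NK-like cells Cxcl16 stood at 138 CPM (3 UMIs, in 1 of 3 cells) and 17.8 CPM (11 UMIs). In library 2 all 11 lay in the 20 T- or NK-like cells on the BC2 side (median depth 19526 UMIs). The 22 on the BC3 side (7219 UMIs) held 0. Pf4 stood at 1474 CPM in T- or NK-like cells of library 2. Whether RNA of other cells adds to these values was not tested. Cxcl9 and Cxcl10 were seen in macrophage-like, intermediate, monocyte-like and mature-dendritic-like cells of library 2 and Cxcr3 in its T- or NK-like cells, which held 0 UMIs of Cxcl9 and 2 of Cxcl10. Dendritic-like and neutrophil-like cells of library 2 also held Cxcl10 (45.6 and 32.3 CPM, 17 and 85 UMIs), with 1 Cxcl9 UMI in each class. Cxcl12, the ligand of Cxcr4, had 0 UMIs in all 9 classes of both libraries. These zeros allow up to 0.268 CPM in intermediate cells of library 2 and up to 138 CPM in T- or NK-like cells of library 1. Cells that the sort left out were not measured.

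Of the 10 genes, 8 passed the filter on low counts and entered the test, all but Cxcr3 and Cxcr6. Between neutrophil-like and macrophage-like cells 6 were called (edgeR adjusted p under 0.05), beside 50.6% of all 8759 genes tested: Cxcr2, Cxcr4, Cxcl2 and Cxcl3 were higher and Cxcl16 and Cxcl9 lower. The median log2 fold change of the 8 was 0.76 and that of all genes -0.11. Of all calls 50.6% were higher, and 26.9% without a scaling factor, which moved the median of all genes by -0.57; the same 6 members were called either way. Between macrophage-like and monocyte-like cells 1 member was called, Cxcl16, beside 2.99% of all genes (medians 0.37 and 0.01).

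Between macrophage-like and dendritic-like cells 2 members were called, Cxcl2 and Cxcl3, both higher, beside 19.2% of all genes. The median of the 8 was 1.39, or 1.05 with Cxcl1 at its floor, and that of all genes 0.01. Of all calls 46% were higher, and 56.6% without a scaling factor, which moved the median of all genes by 0.14. Between resident-macrophage-like and macrophage-like cells 2 members were called, Cxcl3 and Cxcl16, both lower, beside 9.46% of all genes. The median was -3.40, or -1.07 with the genes at 0 UMIs set to their floor, and that of all genes -0.06. All 4 comparisons share the macrophage-like cells of the same libraries.

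**Figure D4:**
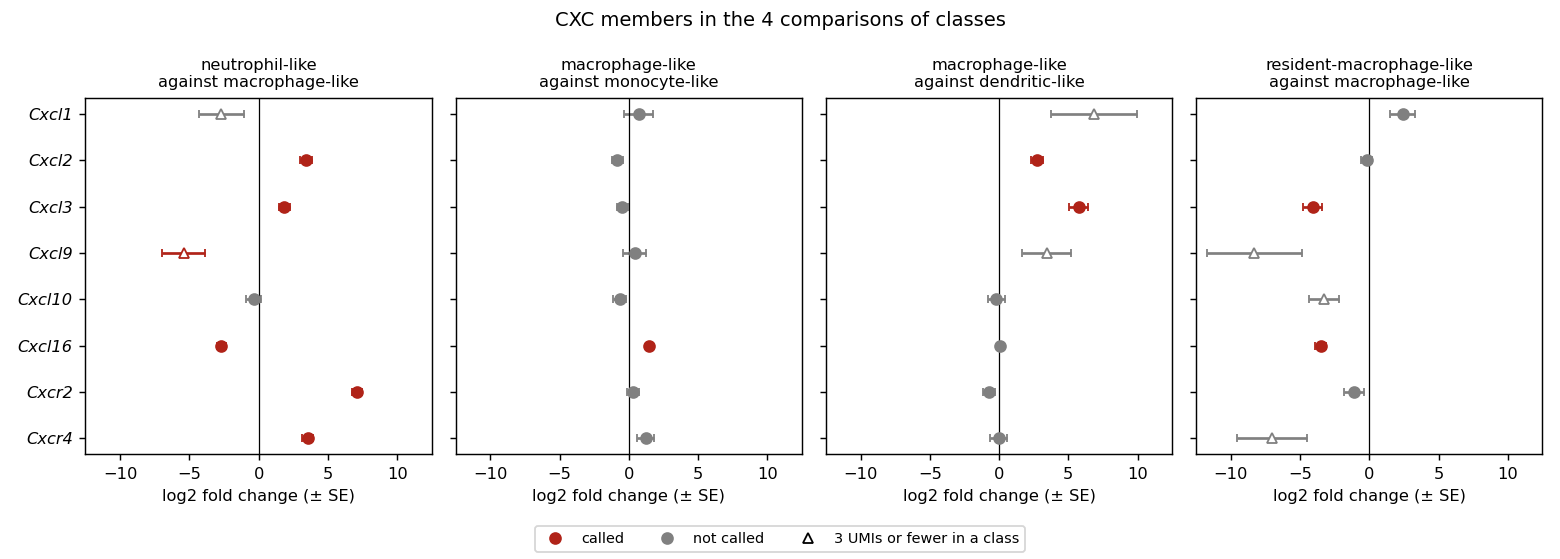
Log2 fold changes of the 8 tested CXC genes with standard errors in 4 comparisons (n = 2 libraries), first-named class over second; red points passed the edgeR test, and open triangles have 3 UMIs or fewer in a class. Cxcr2 stood at 7.07 in neutrophil-like against macrophage-like cells, and Cxcl16 at -3.50 in resident-macrophage-like against macrophage-like cells.

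A wider list of 50 genes of the same pathway, of which 49 are in the files and 39 were tested (Cxcl11 was not analysed here), showed the following. Between neutrophil-like and macrophage-like cells 24 were higher and 4 lower, beside 25.6% and 25% of all genes. Of the genes around NF-kB, which drives Cxcl1, Cxcl2 and Cxcl3, 7 of 8 tested were higher and 0 lower, and of those around interferon signalling, which drives Cxcl9 and Cxcl10, 6 of 6 were higher. Without a scaling factor these were 5 and 4, and without the library block 6 and 2. Of all 8759 genes, 2244 were higher with both in place, 1386 without a scaling factor and 1487 without the block. In the same order 2190, 3767 and 1281 were lower. Of the other CXC ligands 3 of 4 were lower (1 without the block). Of receptor signalling genes 9 of 15 were higher and 1 lower (5 and 1 without a scaling factor, 6 and 0 without the block). The cytokine gene Il1b had 1506 and 4539 CPM in neutrophil-like and 45.4 and 240 CPM in macrophage-like cells (5.10 ± 0.26, edgeR adjusted p = 3.47e-09). Ccrl2, which binds chemerin and presents it to other cells, was higher by 4.37 ± 0.38 and Rgs2, which dampens G protein signalling, by 2.95 ± 0.29. Cxcr1, a further receptor for neutrophil attractants, had 89 against 2 UMIs, a ratio of 75.4 (95% counting interval 20.3 to 632).

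Among the other CXC ligands, Pf4 and Ppbp, chemokines best known from platelets, were higher in macrophage-like than in monocyte-like cells (2.69 ± 0.31 and 1.43 ± 0.35, edgeR adjusted p = 0.000189 and 0.0404), while Il1b was lower (-1.13 ± 0.23). Without the library block all 3 calls were lost (edgeR adjusted p = 0.553 for Pf4, 0.836 for Ppbp and 0.924 for Il1b). Ppbp was also lost with DESeq2 (adjusted p = 0.106), and Ppbp and Il1b with BC2-side cells alone or intermediate cells counted as macrophage-like. Ppbp stood at 2443 and 245 CPM in macrophage-like cells, against 436 and 165 CPM in monocyte-like cells. Of 39 tested genes 2 were higher and 1 lower there, beside 1.56% and 1.43% of all genes. Platelet genes other than these summed to 0.175 and 0.296 CPM over libraries 1 and 2, with Gp1bb at 0 in both.

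Against dendritic-like cells, macrophage-like cells had 5 of the 39 genes higher and 12 lower, beside 8.83% and 10.4% of all genes. All 4 tested CXC ligands of the wider list were higher (2 without the library block), among them Pf4 (6.60 ± 0.39), Ppbp (5.67 ± 0.49) and Cxcl14, with 80 against 0 UMIs and so at least 10.1-fold higher. With clusters, whose intermediate ones were counted as macrophage-like, the calls of Pf4 (2.32, edgeR adjusted p = 0.121) and Cxcl14 (edgeR adjusted p = 0.416) were lost. Receptor signalling genes were lower in 6 of 15 (2 without the block), and Dpp4, a protease that trims CXC ligands, was lower (-4.49 ± 0.60, edgeR adjusted p = 0.00011). Without the block the calls of Ppbp (5.67, edgeR adjusted p = 0.0744) and Dpp4 (-3.99, edgeR adjusted p = 0.089) were lost. Of all 8759 genes 259 were higher and 222 lower without the block, against 773 and 908 with it.

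Resident-macrophage-like cells had 6 of the 39 genes higher and 4 lower than macrophage-like cells, beside 6.11% and 3.36% of all genes. Ackr3, a scavenging receptor for Cxcl12, had 25.6 and 23.6 CPM in resident-macrophage-like and 2.35 and 0 CPM in macrophage-like cells (4.27 ± 0.92, edgeR adjusted p = 0.00912). Rgs1, which also dampens G protein signalling, was higher by 3.47 ± 0.36. Ppbp (-6.18 ± 0.55) and Il1b (-2.35 ± 0.34) were lower. Without the library block these 4 calls were lost, with fold changes of 3.85 for Ackr3, 3.33 for Rgs1, -6.54 for Ppbp and -2.38 for Il1b (edgeR adjusted p = 0.134, 0.138, 0.0815 and 0.292).

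For the 8 members with at least 100 UMIs, the genes of most similar pattern were taken from 8792 genes by Pearson correlation of log2(CPM + 10) over 12 values, 6 classes in each of 2 libraries. The points share cells and depth within a library, and the coefficients are descriptions. Cxcl2 was most like the chemokine gene Ccl3 (r = 0.969), the formyl peptide receptor gene Fpr2 (0.967) and Gtdc1 (0.964). Cxcl10 was most like the interferon-inducible genes Gvin1 (0.930), Fam26f (0.919) and Irf7 (0.917). Cxcr2 was most like Nudt4 (0.989), Nlrp12 (0.988) and Stfa2l1 (0.987), the last a marker used to find neutrophil-like cells, and Cxcr4 like Dusp16 (0.973), Stfa2l1 (0.966) and Cxcr2 itself (0.964). Cxcl16 was most like the replication gene Pcna (0.950), then Syce2 (0.936) and Fam78a (0.911), and Cxcl3 like Trp53inp2 (0.944), Bnip3 (0.942) and Zfp36l1 (0.940). The coefficients of the sparser genes were lower, with Wdr73 (0.892), Tmem135 (0.861) and Rab13 (0.834) for Cxcl1 and Heatr1 (0.888), Hyou1 (0.875) and Iws1 (0.872) for Cxcl9.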

How the data were processed

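Single-cell RNA was captured with a 10x 3′ droplet kit, per the labels' protocols, and the deposited values are whole-number UMI counts per gene and cell. The submitters' processing notes name Cell Ranger 3.0.1 and the build mm10; the annotation release is not stated there. All matrix columns were used as cells of their library (0 left unmapped). The 10 genes, the marker lists and the pathway list were chosen with earlier results of these data known.

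Cells with at least 300 genes and at most 10% mitochondrial UMIs were kept, 1116 of 1141 barcodes in library 1 and 2847 of 2908 in library 2, from 11543829 and 20322996 UMIs, with medians of 9894 and 1954 UMIs. Classes were set by thresholds on marker UMIs per 10000 (neutrophil 100, macrophage 30, monocyte 60, resident 20, dendritic 8, mature dendritic 10, T or NK 10, B 20). Cells with markers of incompatible classes were left out as mixed (20 and 84), 47 and 37 cells passed no threshold, and no doublet caller was run.

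UMIs were summed per library and class. Classes with at least 20 cells in each library entered 1 fit in edgeR 4.0.16 (R 4.3.3), with TMM scaling, its filter on low counts, the library as a block, the quasi-likelihood test and Benjamini-Hochberg adjustment over all 8759 genes tested. A call is an adjusted p under 0.05. Both libraries hold every class, so the library pairs the classes. The standard error was taken as the fold change over the square root of its F value. Ratios within a library used CPM with 0.5 UMI added and have no test. No label states that each library came from its own animals. With the library as a block, p-values rest on how far differences between classes vary between these libraries, which may be technical. That spread was estimated over all classes of the fit. Intervals are exact 95% (Poisson for levels, Clopper-Pearson for shares), and they and the floor of 3 counts cover counting error only. For a class at 0 the limit is 3 counts per library, and the fold bound uses 3 counts over both libraries. For shares, cells were thinned to 1000 UMIs, leaving out shallower ones.

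Levels of all 10 genes were taken in every class, though not every value is given here, above all for the small classes. From the pathway list at most the 4 called genes of largest change per comparison were named. For each member with at least 100 UMIs the 3 most similar genes were named. Alternatives were no scaling factor, DESeq2 1.42.0, no filter on low counts, no library block, thresholds 2 times as high, clusters (scanpy 1.11.5, leidenalg 0.10.2), a minimum of 1000 UMIs, BC2-side cells of library 2, and each library left out. Steps were tested on simulated data.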

Additional observations from a re-analysis of the deposited data

Results flagged for a closer look

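Of the neutrophil-like cells of library 2, 1542 lay on the BC3 side of the antibody tags, a signal in data outside the gene counts. That side also takes cells with equal counts of both tags. Their Cxcl2, Cxcr2 and Cxcr4 levels are given in the report.

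The 26 cells of library 2 with both T or NK and C1q markers lie outside the classes and held 173 Cxcr6 UMIs, in 23 cells. Their C1qa level was 1062 CPM, against 32.3 CPM in T- or NK-like cells, and Cd3 RNA was found in 25 of the 26.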

How the results depend on the processing

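Between neutrophil-like and macrophage-like cells, 4 to 7 members were called over all alternatives with a test, beside 10% to 58.8% of all genes. Between macrophage-like and monocyte-like cells, 2 were called with no filter on low counts (Cxcl16 and Cxcl2), beside 2.97% of all genes, and 0 with intermediate cells counted as macrophage-like, beside 0.453%. Between macrophage-like and dendritic-like cells, 4 were called with no filter (Cxcl1, Cxcl2, Cxcl3 and Cxcl9), beside 12.3%. Between resident-macrophage-like and macrophage-like cells, 6 were called with no filter, beside 6.98% (1040 of 14901 genes), and 4 with thresholds 2 times as high (Cxcl1, Cxcl3, Cxcl10 and Cxcl16), beside 12.1% (1003 of 8271). The cause was not tested. With thresholds 2 times as high, libraries 1 and 2 gave 457 and 351 macrophage-like cells, against 323 and 78. Intermediate cells fell to 97 and 258, from 347 and 736. The higher thresholds thus do not give a narrower macrophage-like class. Of the 10 members, the class of highest level among the tested ones was kept by 6 with thresholds 2 times as high, by 5 with clusters, by 5 with clusters whose intermediate ones were counted as macrophage-like, and by 4 to 10 when a library was left out.

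Without the library block as the pairing, the calls were 4 between neutrophil-like and macrophage-like cells (Cxcl3 and Cxcl9 lost), 0 between macrophage-like and monocyte-like, 1 between macrophage-like and dendritic-like (Cxcl2) and 1 between resident-macrophage-like and macrophage-like (Cxcl16). Over all 8759 genes the calls without the block were 2768, 21, 481 and 374 in that order, against 4434, 262, 1681 and 829 with it. Cxcl10 between macrophage-like and dendritic-like cells stood at 0.67 without the block, against -0.19 with it.

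The sign changed in 31 of 336 values for single members, 16 of 272 with a test and 15 of 64 with a library left out. One of the 31 belonged to a called difference, Cxcl9 between neutrophil-like and macrophage-like cells. It was -5.95 in library 2 alone and 3.57 in library 1 alone, where both classes hold 0 UMIs and the 0.5 UMI added sets the value. In the 16 with a test neither value was called. Cxcl10 between neutrophil-like and macrophage-like cells (-0.35) was 0.53 with higher thresholds, 0.26 with intermediate cells merged into the macrophage-like ones and 0.49 with clusters so merged. Between macrophage-like and monocyte-like cells, Cxcl9 (0.43) was -1.33 with DESeq2, -0.69 with higher thresholds and -1.06 with merged cells, which also gave 0.12 for Cxcl3 and -0.01 for Cxcr2. Between macrophage-like and dendritic-like cells, Cxcl16 (0.04) was -0.77 with higher thresholds, -0.08 with BC2-side cells, -0.66 with merged cells and -1.08 with merged clusters. There Cxcl9 was -0.43 with merged clusters, and Cxcr4 (-0.04) was 0.12 with no scaling factor and 0.34 with BC2-side cells. Of all 336, a call was lost in 10 and gained in 14.

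With 1 library there is no test. Plain clusters gave no monocyte-like cluster in either library and no macrophage-like one in library 2, so their comparisons could not be fitted, and too few resident-macrophage-like cells lay on the BC2 side. Both alternatives that merge intermediate cells or clusters were chosen after seeing the data. Cxcl1 and Cxcl9 rest on few UMIs, as do Cxcr3 and Cxcr6 within the tested classes.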
